A study of Drosophila melanogaster with 6 samples.

Results

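The 10 ion channel genes described here were Sh, Shab, Shal, Shaw, eag, sei, slo, para, cac and Rdl, taken by name from a table of 17612 Drosophila melanogaster genes and found in it through their dm6 coordinates. RNA immunoprecipitation sequencing (RIP-seq) was done to find the transcripts, su(Hw) and others, that are bound in vivo by the protein Isha. The Isha RIP group (3 libraries) held RNA recovered on beads with rabbit antiserum to Isha, from extract first cleared with preimmune serum, and the input group (3 libraries) was sequenced without immunoprecipitation. All 6 libraries came from nuclear extracts of whole wild-type Oregon R embryos aged 0 to 24 h, so every tissue and stage of embryogenesis was mixed. Libraries held 8386414 to 14342543 counts in Isha RIP and 29344529 to 31680173 in input. Whether the libraries of a group stem from separate embryo collections is not in the labels, and p-values therefore reflect only library-to-library spread, part or all of which may be technical.

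Voltage-gated channels open or close with the membrane potential, and ligand-gated channels open when a transmitter binds. Sodium and calcium channels depolarise a neuron and trigger transmitter release, potassium channels repolarise it and set its firing pattern, and GABA receptors inhibit it by passing chloride. In Drosophila many of these transcripts are long, spliced in many ways and edited by the adenosine deaminase Adar. Most of these channels are known from neurons, and several, among them Sh, Shab and slo, also carry potassium currents in muscle.

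As a group the channel transcripts took a larger share of the Isha RIP libraries than of input. They held 0.152% ± 0.00295 of all counts in Isha RIP and 0.0903% ± 0.000890 in input (SD, n = 3 libraries each). All 10 passed the filter on low counts. Of these, 8 were enriched and 0 were depleted by edgeR's quasi-likelihood test, with a threshold of 0.05 on p-values adjusted by Benjamini-Hochberg over all 11764 tested genes. No member was depleted at an unadjusted p under 0.05, by DESeq2 or by limma-voom (0 in each). Over all tested genes 27.0% were enriched and 30.4% depleted. In 8 members all 3 RIP libraries lay above all 3 input libraries, as in 30.0% of all tested genes, and in 0 members they lay below, as in 34.0% of all tested genes. The median log2 fold change was 0.68 over the members and -0.05 over all tested genes. Since library totals and TMM factors set the scale, a change is relative to the typical transcript. No mock immunoprecipitation was used here, and binding to Isha cannot be told apart from binding to beads or serum.

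**Figure D1:**
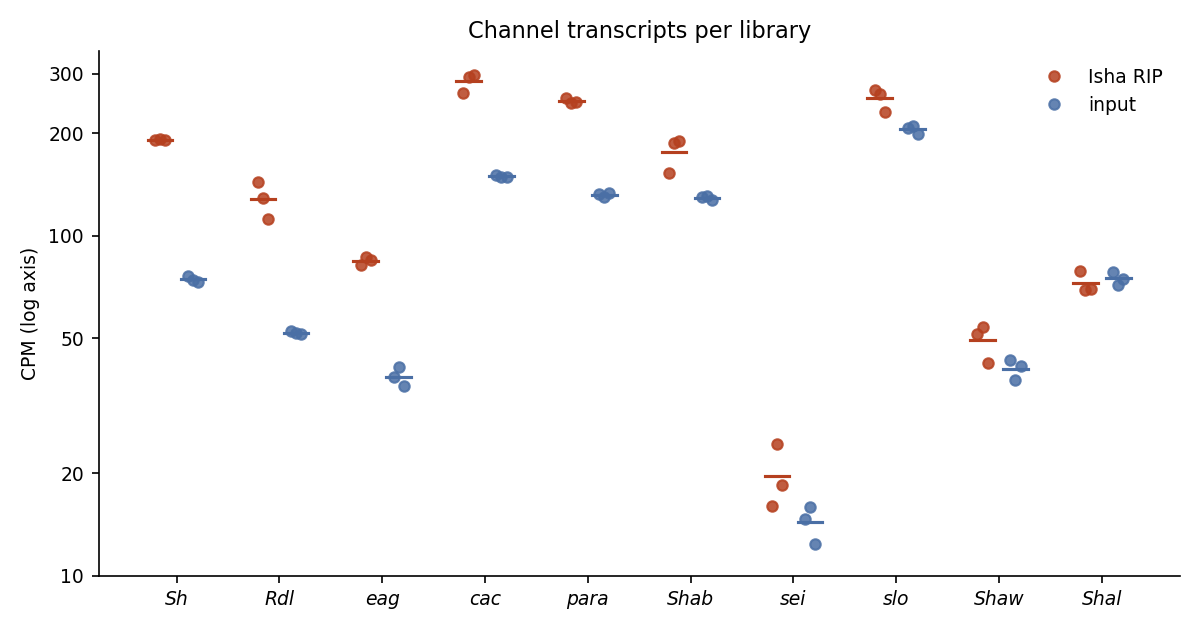
Scaled counts (CPM, log axis) of each channel transcript in the 3 Isha RIP libraries (left of each pair) and the 3 input libraries (right of each pair), with bars at the means, ordered by log2 fold change. The points of the groups are well apart for Sh, Rdl, eag, cac and para, and they interleave for Shaw and Shal.

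The Shaker-related potassium channels, Sh, Shab, Shaw and Shal, spread from the strongest enrichment of the 10 genes to no detected change. Sh, which encodes the fast inactivating A-type channel first cloned from the leg-shaking mutant Shaker, had 191, 192.5 and 191.5 CPM in Isha RIP, against 75.9, 74.0 and 73.3 CPM in input. CPM is a count scaled by its library's total and TMM factor. The Sh groups were far apart, with a coefficient of variation of 0.453% in RIP and 1.82% in input. Counting of reads alone would give 2.27% in RIP and 2.10% in input. The closeness of these 3 values per group is therefore not a measure of precision. Its log2 fold change was 1.36 ± 0.066 (SE), a 2.58-fold difference, with an adjusted p of 3.46e-14 (edgeR). Ordered by log2 fold change, Sh ranked 674 of the 11764 tested genes.

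Shab, a delayed rectifier, had 153, 188 and 190.3 CPM in Isha RIP, against 129.7, 130.5 and 128 CPM in input. RIP library 1 was the lowest of the RIP libraries and still above every input library. The log2 fold change of Shab was 0.45 ± 0.075 (SE), with an adjusted p of 1.66e-05 (edgeR). Shaw, a channel that in flies is open near the resting potential, had 51.4, 54.0 and 42.2 CPM in Isha RIP, against 43.0, 37.6 and 41.3 CPM in input. RIP library 3 fell inside the input range, and the log2 fold change of 0.27 ± 0.12 (SE) did not pass (adjusted p = 0.0528, edgeR). The call of Shaw changed to enriched under 6 of 18 alternatives, at log2 fold changes of 0.10 to 0.37 over all 18. Shal, which carries the A-type current of neuronal cell bodies, had 78.9, 69.2 and 69.5 CPM in Isha RIP, against 78.3, 71.8 and 74.8 CPM in input. The groups of Shal overlapped, and its log2 fold change was -0.05, with a 95% interval of -0.23 to 0.13 (adjusted p = 0.665, edgeR).

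Ratios of raw counts within a library do not depend on how libraries were scaled. Sh had 2.65 ± 0.202 times the counts of Shal in Isha RIP and 0.993 ± 0.0336 times in input (SD, n = 3 each). In single libraries this ratio was 2.42, 2.78 and 2.75 in Isha RIP, against 0.969, 1.03 and 0.98 in input. The ratio of Sh to Shab was 1.09 ± 0.135 in RIP and 0.575 ± 0.00905 in input, and that of Shab to Shaw was 3.65 ± 0.780 in RIP and 3.19 ± 0.242 in input. Of the 6 pairs of Shaker-related genes, 5 had ratios that did not overlap between groups, and Shab to Shaw was the pair that overlapped. With 3 libraries against 3 the smallest 2-sided p an exact permutation test can give is 0.1, and those 5 pairs reached it. Over the 8 pairs compared, which were these 6, eag to sei and cac to para, the adjusted value of such a pair was 0.133 (exact permutation test). The 6 pairs were built from the same 4 genes and are not independent. How often pairs of other genes fail to overlap was not computed. Of all single genes tested, 30.0% lay fully above input by CPM and 34.0% fully below.

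The remaining potassium channels were eag and sei, relatives in the ether-a-go-go family, and slo. The gene eag, founding member of that family, had 81.8, 86.5 and 84.8 CPM in Isha RIP, against 38.5, 41.0 and 36.1 CPM in input. The groups of eag were well apart, with a log2 fold change of 1.13 ± 0.094 (SE), a 2.19-fold difference (adjusted p = 5.02e-10, edgeR). The gene sei, the ERG-type channel named for the seizure mutant, was the least abundant member by CPM, at 16.0, 24.4 and 18.4 CPM in Isha RIP, against 14.7, 15.9 and 12.4 CPM in input. Its lowest RIP library was barely above its highest input library. The log2 fold change of sei was 0.45 ± 0.19 (SE) and only just passed (adjusted p = 0.0492, edgeR); the call was lost under 10 of 17 alternatives, whose log2 fold changes ran over all 17 from 0.27 to 0.56.

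Reads assigned to sei are uncertain. Its exons share 359 bases with gammaSnap1 and 119 bases with ppk29, both on the opposite strand, and the sources used here do not say whether reads were counted by strand. The vesicle fusion gene gammaSnap1 was depleted, at 7.47 CPM ± 0.515 in RIP and 12.1 CPM ± 1.21 in input (SD, n = 3 each; adjusted p = 0.0111, edgeR). In contrast, ppk29 did not pass, at 4.23 CPM ± 2.92 in RIP and 3.40 CPM ± 1.43 in input (adjusted p = 0.545, edgeR). Its log2 fold change of 0.35 had the same direction as that of sei. No exon of the other 9 members overlapped another gene. Within libraries, eag had 4.42 ± 0.801 times the counts of sei in Isha RIP and 2.70 ± 0.189 times in input, without overlap (exact permutation p = 0.1, the smallest possible).

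The gene slo encodes the large-conductance potassium channel that is opened by calcium and voltage together. It had 269, 261 and 231 CPM in Isha RIP, against 208, 211 and 199 CPM in input. All RIP libraries were above all input libraries, but the step was small, with a log2 fold change of 0.30 ± 0.061 (SE; adjusted p = 0.000220, edgeR). By CPM slo was the highest of the 10 in input, where it stood above cac, and the order was the opposite in RIP, where the ranges of cac and slo overlapped.

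The channels that drive action potentials and transmitter release were enriched to a similar degree. The sodium channel gene para, which carries the action potential in Drosophila neurons and is the target of pyrethroid insecticides, had 254, 245 and 247 CPM in Isha RIP, against 133, 130.1 and 134 CPM in input. Its log2 fold change was 0.91 ± 0.058 (SE), a 1.88-fold difference (adjusted p = 4.27e-12, edgeR). The gene cac, the presynaptic calcium channel that couples the action potential to release, had 264, 292 and 297 CPM in Isha RIP, against 151, 148 and 149 CPM in input. Its log2 fold change was 0.93 ± 0.059 (SE), a 1.91-fold difference (adjusted p = 4.50e-12, edgeR). The ratio of cac to para counts was 1.15 ± 0.0919 in RIP and 1.13 ± 0.0139 in input and overlapped between groups (exact permutation p = 1).

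Rdl, the subunit of the GABA receptor named for resistance to the insecticide dieldrin, was the ligand-gated member. It had 144, 129 and 112 CPM in Isha RIP, against 52.4, 51.6 and 51.4 CPM in input. The RIP libraries of Rdl spread widely but stood far above input, with a log2 fold change of 1.31 ± 0.089 (SE), a 2.47-fold difference (adjusted p = 1.59e-11, edgeR). Sh, Rdl and eag were thus enriched at least 2-fold, which 8.63% of all tested genes were.

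The log2 fold changes formed an upper group (Sh, Rdl, eag, cac and para, 0.91 to 1.36) and a lower group (Shab, sei, slo, Shaw and Shal, -0.05 to 0.45). Neighbours in this order had overlapping 95% intervals, except para and Shab (0.79 to 1.03 for para and 0.30 to 0.61 for Shab). The wide interval of sei (0.05 to 0.84) overlapped those of para and cac, so the groups were not fully apart. As a share of the counts of the 10 genes together, Sh held 12.7% ± 0.204 in RIP and 8.16% ± 0.0486 in input (SD, n = 3 each). Rdl held 8.51% ± 1.03 in RIP and 5.68% ± 0.0329 in input. The share of slo was 16.8% ± 1.18 in RIP and 22.6% ± 0.486 in input, and that of Shal was 4.81% ± 0.395 in RIP and 8.23% ± 0.315 in input. In 9 of the 10 genes the shares did not overlap between groups, with sei as the exception, and each of the 9 reached the smallest possible exact permutation p of 0.1 (0.111 adjusted over the 10). By CPM, RIP libraries lay fully above input in 30.0% of all tested genes and fully below in 34.0%. CPM is another measure than a share of the 10 genes, so this is not a matching background. How often shares within other sets of genes fail to overlap was not computed. The shares of a library add up to a fixed whole, so the 9 results are not independent. A lower share in RIP, as for slo, is therefore not a depletion.

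**Figure D2:**
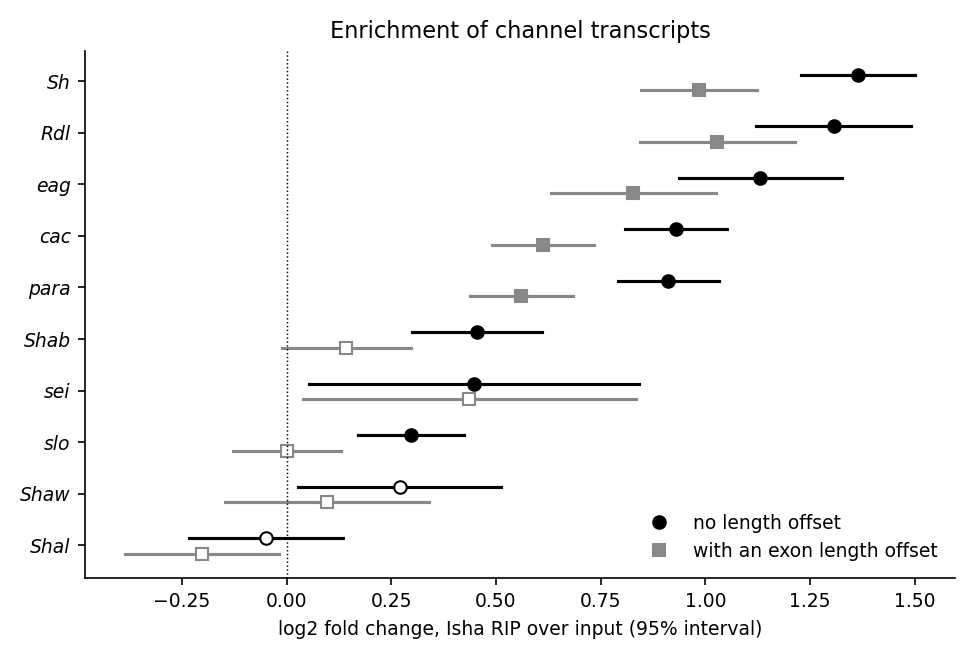
Log2 fold change of Isha RIP over input for each channel gene, with 95% intervals; black circles are from the fit without and grey squares from the fit with an offset for exon length, and open symbols did not pass. Sh, Rdl, eag, cac and para pass in both fits, while slo lies at 0.30 without and at 0.00 with the offset.

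Spread between libraries differed by gene. In Isha RIP the coefficient of variation of CPM was highest for sei at 22.0%, and it was 12.5% for Shaw, 12.5% for Rdl and 11.9% for Shab. Counting alone would give 7.17% for sei, 4.48% for Shaw, 2.77% for Rdl and 2.38% for Shab. The median over the 7723 genes averaging at least 10 CPM was 9.07% in RIP and 6.23% in input. In input every member but Shaw, eag and sei was below that median. Counting error covers sampling of reads only, since reads without molecular identifiers are not independent molecules.

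To compare one gene with another, levels were divided by exon length and given as RPKM, the CPM per kilobase of exon (mean ± SD, n = 3 libraries). In bulk extract, fewer cells of a type and less RNA per cell cannot be told apart in such a level. In Isha RIP slo (25.0 ± 1.98 RPKM) and cac (23.9 ± 1.53 RPKM) were highest and overlapped. Next came Shal (15.8 ± 1.19 RPKM), Shab (15.6 ± 1.85 RPKM), para (15.2 ± 0.279 RPKM) and Rdl (14.3 ± 1.78 RPKM), each overlapping the next. Shaw (9.84 ± 1.23 RPKM) and Sh (8.50 ± 0.0385 RPKM) overlapped and were followed, without overlap, by eag (7.93 ± 0.222 RPKM) and sei (5.98 ± 1.32 RPKM).

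In input the order per length was slo, Shal, cac, Shab, Shaw, para, Rdl, sei, eag and Sh. The neighbours that overlapped were Shaw (8.12 ± 0.549 RPKM) with para (8.10 ± 0.118 RPKM) and sei (4.37 ± 0.554 RPKM) with eag (3.62 ± 0.230 RPKM). Sh was the lowest at 3.30 ± 0.0600 RPKM, against 20.3 ± 0.596 RPKM for slo and 16.3 ± 0.716 RPKM for Shal. The gene with the largest enrichment was therefore the one with the lowest input level per length. Shal, second in input, had the lowest log2 fold change, while slo, highest in input, was enriched. Input is the denominator of the fold change, so such a relation is partly built in. Spearman's rho between log2 fold change and input RPKM was -0.68 over the 10 genes and -0.07 over the 10740 tested protein-coding genes. Exon length here is the union of all annotated exons, so a gene with many alternative exons, such as Sh, has a level per length that is too low for any one transcript.

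**Figure D3:**
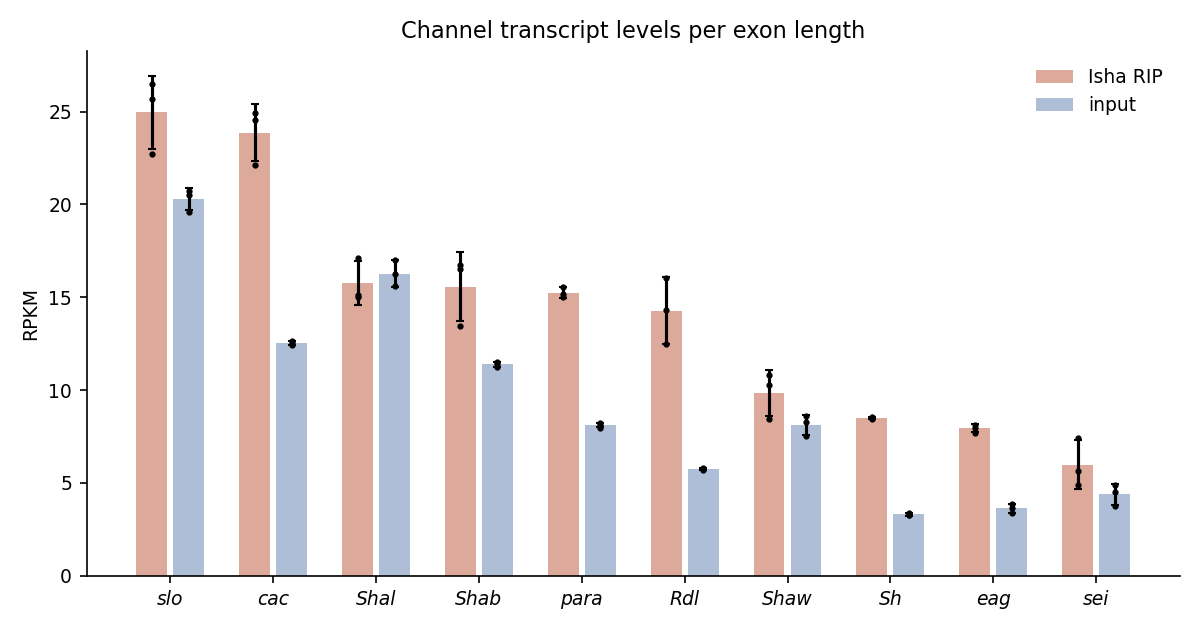
Levels per exon length (RPKM, bars at the mean with SD and points for the 3 libraries) in Isha RIP (left of each pair) and input (right of each pair). Sh is the lowest gene in input and stays below slo and cac in Isha RIP, and the points of Shal overlap between the groups.

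All 10 genes are protein-coding, and coordinates are of dm6. On the X chromosome lie Sh (FBgn0003380, 17924307 to 18063247, minus strand), para (FBgn0285944, 16455027 to 16533096, minus), eag (FBgn0000535, 14955477 to 15009989, plus) and cac (FBgn0263111, 11931280 to 11985087, minus). On 3L lie Shab (FBgn0262593, 2895017 to 2959579, plus), Rdl (FBgn0004244, 9145838 to 9182149, minus) and Shal (FBgn0005564, 19566851 to 19584568, minus). The other positions are 3R for slo (FBgn0003429, 24662491 to 24711595, plus), 2L for Shaw (FBgn0003386, 3718185 to 3729145, plus) and 2R for sei (FBgn0003353, 24047411 to 24053035, plus). The 4 genes on the X were all enriched, at a median log2 fold change of 1.03, and the 6 autosomal genes had a median of 0.37 with 4 enriched. Over all tested protein-coding genes of the X 27.6% were enriched, at a median of -0.13. On 2L, 2R, 3L and 3R 25.0% to 29.7% were, at medians of -0.12 to -0.03. The 4 genes on the X had 10636 to 22552 exonic bases and the 6 autosomal genes 3278 to 11359. Chromosome and exon length can therefore not be told apart in these 10 genes, and an effect of the X was not tested.

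Exon length ran from 3278 bases in sei, 4606 in Shal and 5000 in Shaw to 16309 in para and 22552 in Sh. The genes with long exonic sequence were, for the most part, those with large log2 fold changes, but slo at 10153 bases and Shab at 11359 bases were in the lower group and Rdl at 8994 bases was in the upper one. Spearman's rho between log2 fold change and exon length was 0.65 over the 10 genes and 0.20 over the 10740 tested protein-coding genes. With the whole span of the gene in place of exon length it was 0.62 over the 10 genes and 0.21 over the coding genes. These are descriptions across genes measured in the same 6 libraries. The span was 138941 bases in Sh, with exons filling 16.2% of it, and 5625 bases in sei, with exons filling 58.3%.

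Long coding genes in general were enriched more often than short ones. Of 436 coding genes with 8000 to 16000 exonic bases 61.0% were enriched, at a median log2 fold change of 0.34, and of 3522 with 1000 to 2000 bases 18.5% were, at a median of -0.30. In the class above 16000 bases, which holds Sh and para among only 44 genes, 59.1% were enriched and 29.5% depleted, at a median of 0.25, against 16.5% depleted in the 8000 to 16000 class. Within its own length class, Sh had a larger log2 fold change than 97.7% of the other genes, Rdl than 95.9%, eag than 92.4%, cac than 88.3% and para than 81.4%. In the lower group the values were 74.7% for sei, 58.6% for Shab, 56.6% for Shaw, 45.5% for slo and 34.4% for Shal, so that Shab, Shaw and slo were near the middle of genes of their length.

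In a fit with an offset for exon length, 5 members were enriched and 0 depleted (edgeR), against 28.6% enriched and 27.6% depleted among all genes. The 5 were Rdl at a log2 fold change of 1.03 ± 0.090 (SE), Sh at 0.98 ± 0.067, eag at 0.83 ± 0.095, cac at 0.61 ± 0.059 and para at 0.56 ± 0.060. The values of Shab (0.14 ± 0.074), slo (0.00 ± 0.062) and sei (0.44 ± 0.19) no longer passed. The interval of sei (0.04 to 0.83) overlapped that of para (0.44 to 0.68), as it also did in the fit without the offset. Shal stood at -0.20 ± 0.089, with an adjusted p of 0.0565 (edgeR). Rdl and Sh thus changed places at the top, with intervals that overlapped.

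**Figure D4:**
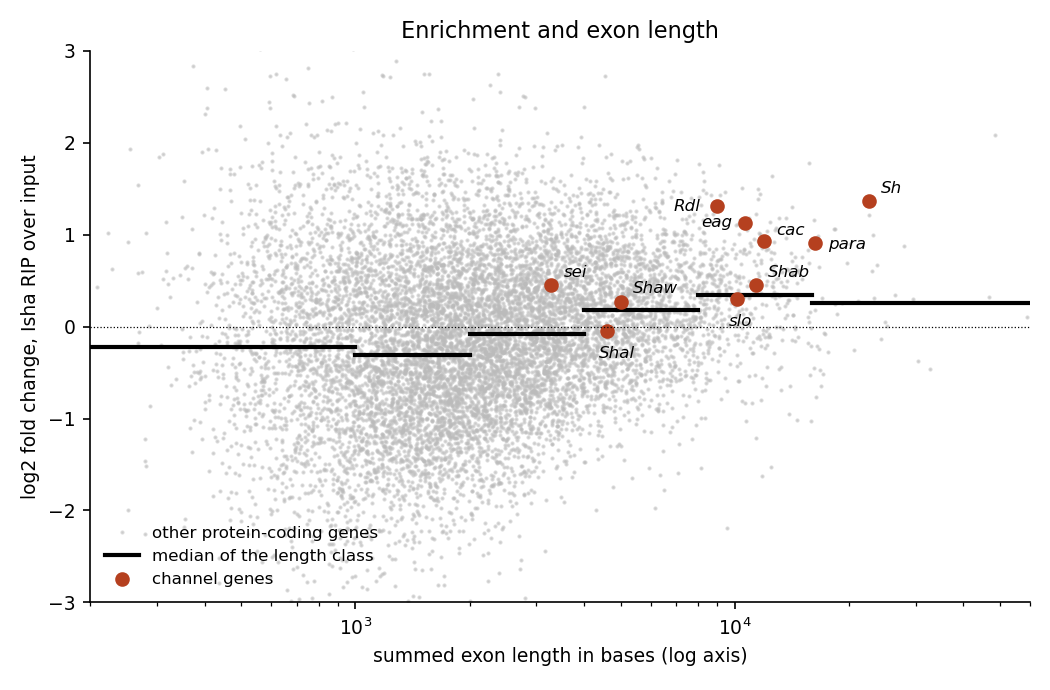
Log2 fold change of Isha RIP over input against summed exon length (log axis) for the channel genes (red) and the other tested protein-coding genes (grey), with black lines at the median of each length class; 64 genes outside the plotted range are not drawn. Sh, Rdl, eag, cac and para stand well above the line of their class, slo, Shab and Shaw lie near it, and Shal lies below it.

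Other channel genes, listed by role, went both ways. Of 54 genes in 3 lists, 51 were tested, 20 were enriched and 12 depleted, at a median log2 fold change of -0.01. That is 39.2% enriched and 23.5% depleted, against 27.0% and 30.4% of all tested genes. Of the 14 other voltage-gated and leak channels, 2 were enriched and 1 was depleted, at a median of -0.04. SK, the small-conductance calcium-activated potassium channel, had 138 CPM ± 8.10 in RIP and 60.7 CPM ± 3.67 in input (SD, n = 3 each). Ih, the channel of the hyperpolarisation-activated current, had 98.3 CPM ± 2.49 in RIP and 56.5 CPM ± 6.59 in input. The leak channel Ork1 was depleted, at 7.75 CPM ± 1.69 in RIP and 14.4 CPM ± 3.93 in input.

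Of 13 genes for auxiliary subunits and partners, 7 were enriched and 3 depleted, at a median of 0.60. Teh4, of the TipE family that assists the para channel, had 114 CPM ± 4.28 in RIP and 49.2 CPM ± 4.12 in input (SD, n = 3 each). The sleep regulator qvr, which binds the Sh channel, had 63.3 CPM ± 5.39 in RIP and 29.5 CPM ± 1.17 in input. Slob, a protein that binds the slo channel, had 47.9 CPM ± 6.47 in RIP and 23.5 CPM ± 2.58 in input. Of the 5 TipE family genes, looked at together after their values were seen, 4 were enriched and 1 depleted. The one depleted was Teh3, with 2, 0 and 15 counts in RIP, against 105, 82 and 89 counts in input, and its exons overlap another gene, as do those of Teh2 and tipE. Also depleted were unc80, a subunit of the sodium leak channel complex, at a log2 fold change of -0.60, and stol, an alpha2delta subunit of calcium channels, at -0.26.

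Among 24 tested ligand-gated channels other than Rdl, 11 were enriched and 8 depleted, at a median of 0.14. The 3 enriched genes of largest change encode nicotinic acetylcholine receptor subunits. These were nAChRalpha6, at 54.5 CPM ± 2.58 in RIP and 24.6 CPM ± 4.94 in input, nAChRalpha5 at a log2 fold change of 0.93 and nAChRalpha1 at 0.88. The 3 depleted genes of largest change encode glutamate receptor subunits. GluRIA had 19.2 CPM ± 1.14 in RIP and 35.5 CPM ± 3.95 in input, Nmdar1 had a log2 fold change of -0.75, and GluRIIA, whose exons overlap another gene, one of -0.74. Other glutamate receptor genes were enriched, namely KaiR1D at a log2 fold change of 0.87 and Nmdar2 at 0.55, which were named after their values were seen.

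**Figure D5:**
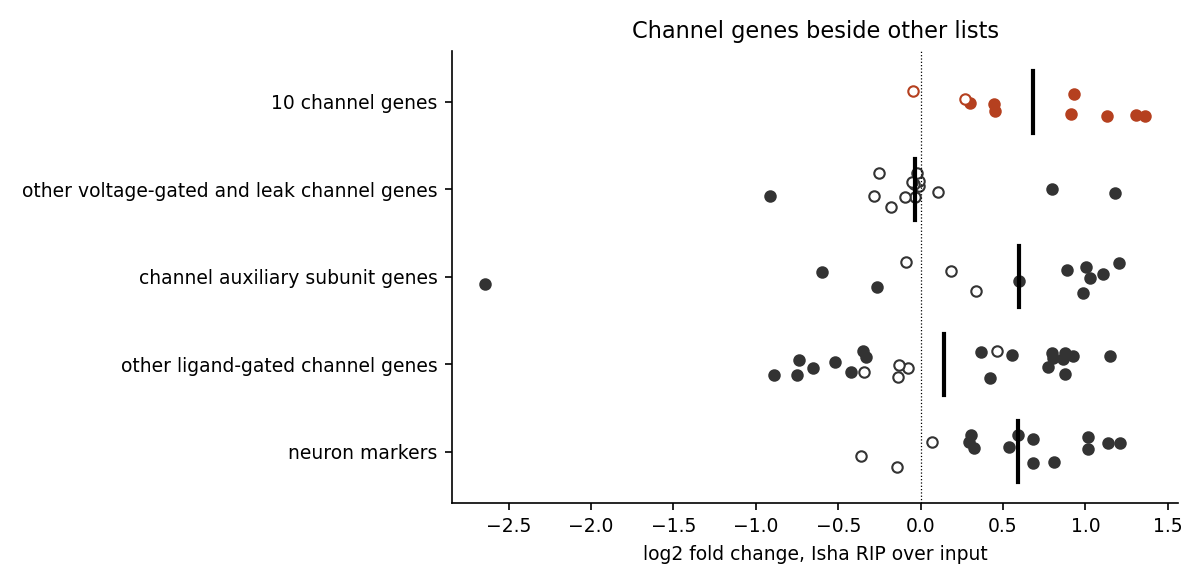
Log2 fold change of Isha RIP over input for the 10 channel genes (red), other channel genes by role and neuron markers (black), with filled points for genes that passed and bars at the medians. The medians are 0.68 for the 10 genes, -0.04 for other voltage-gated and leak channels, 0.60 for auxiliary subunits, 0.14 for other ligand-gated channels and 0.59 for neuron markers.

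Of 7 RNA-binding or RNA-modifying genes known to act on channel transcripts, 6 were enriched and 1 depleted, at a median of 0.57. The splicing regulator ps had 920.0 CPM ± 29.2 in RIP and 406 CPM ± 2.15 in input (SD, n = 3 each). The neuronal RNA-binding protein elav had a log2 fold change of 0.79 and the editing enzyme Adar one of 0.72; exons of both overlap other genes. The translational repressor pum, which acts on para mRNA, was at 0.11. The helicase mle, in which the nap mutation alters splicing of para transcripts, was depleted at -0.26.

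Genes that mark neurons, synapses and other tissues were read from the same fit. Of 15 neuron markers 12 were enriched and 0 depleted, with summed levels of 4001.5 to 4049.5 CPM in RIP and 2544 to 2655 CPM in input. Of 13 synaptic vesicle and release genes 7 were enriched and 2 depleted, and of 18 axon guidance genes 8 were enriched and 6 depleted. Of 12 muscle markers 7 were enriched and 4 depleted, with sums of 14062 to 14294 CPM in RIP and 12787 to 12962 CPM in input. Of 9 glia markers 1 was enriched and 4 were depleted, with sums of 739.8 to 781 CPM in RIP and 749 to 763 CPM in input. No marker in these lists was at 0 in either group. The part of these tissues in the values of the 10 channel genes was not tested.

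The tested genes whose levels over the 6 libraries were most like the mean profile of the 10 channel genes were Dd, jar, gpp, sgg and apolpp. Likeness was the Euclidean distance between log2 CPM values centred per gene, and these genes were at 0.0504 to 0.0738. Their log2 fold changes were 0.67 to 0.73, while the members behind the mean ran from -0.05 to 1.36. Nearness to the mean profile is therefore not likeness to any one channel gene. Dd encodes a nuclear envelope phosphatase, jar an unconventional myosin, gpp a histone methyltransferase, sgg a kinase of the Wingless pathway and apolpp the lipoprotein precursor of hemolymph. Exons of sgg and apolpp overlap other genes. Among the 10 themselves, para and cac were the closest pair at a distance of 0.171, followed by Shaw and slo at 0.217 and by Sh and Rdl at 0.271. Distances between single genes are not comparable with distances to a mean profile.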

How the data were processed

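The authors deposited 1 featureCounts table of raw read counts, with FlyBase gene identifiers, exon coordinates and summed exon lengths. Per the submitters' processing notes, the tools were HISAT2 2.2.1, cutadapt 2.9, Subread 2.0.0 with featureCounts, and Picard 2.22.2, on the build dm6. Not given in the sources used here are the strand setting and how duplicates and multiply mapped reads were treated. Symbols came from RefSeq genes of the same assembly by exact coordinates (17170 genes) or identifier (16), which left 426 unmatched. The list symbols stnA and stnB were not found.

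Genes were filtered with filterByExpr (minimum count 10), scaled with TMM and tested 2-sided on 11764 genes with edgeR's quasi-likelihood method, fitting group alone (R 4.3.3, edgeR 4.0.16). Standard errors were derived from each log2 fold change and its F statistic. DESeq2 1.42.0 and limma 3.58.1 (voom) were alternatives. The workflow was tested on simulated counts. No 2 libraries of a group agreed within counting noise (chi-square per degree of freedom 5.76 to 14.0), and each was taken as 1 replicate. By library total, 1 count was worth 0.0697 to 0.119 CPM in RIP and 0.0316 to 0.0341 CPM in input.

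The members and lists were chosen with earlier results of these data known. Named were all 10 members, up to 3 called genes of highest and 3 of lowest log2 fold change in each list on channels and their RNA regulators, and the 5 genes of nearest profile with a mean of at least 10 CPM. Other genes named are context or, where so stated, were picked with their values in view.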

Additional observations from a re-analysis of the deposited data

How the results depend on the processing

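Of 179 member values under 18 alternatives, 160 kept their direction and side of the threshold, 12 lost the call, 6 gained it and 1 changed sign, which was Shal at 0.017 after thinning to equal depth. Sh, Rdl, eag, cac and para were enriched under all 18, and 0 members were depleted under any of them. With an offset for exon length 5 members were enriched, against 8 without; the cause was not tested. Without genes whose exons overlap another, 7670 genes were tested, of which 2053 were enriched and 2343 depleted; fewer genes tested accounts for the lower counts. Leaving out one library gave 7 to 8 enriched members. Among all 11584 to 12398 genes tested in these fits, 2908 to 3034 were enriched and 3204 to 3533 depleted. The gene sei lost its call without RIP replicate 2 or 3 or any input replicate, and Shaw gained one without RIP replicate 3. Deviations of RIP and input libraries with the same replicate number were hardly correlated (-0.01, -0.03 and -0.04 for replicates 1, 2 and 3). Such values give no sign of pairing by number but cannot exclude it, since noise between libraries could hide it. With the replicate number as a block 7 members were enriched and 0 depleted, without the call of sei. Among all 11764 genes tested in that fit, 3065 were enriched and 3520 depleted. CPM in place of RPKM moved 8 members to another rank in RIP and 6 in input, since it leaves out length. Depth limits sei most, at 141 to 266 counts in RIP.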

Other observations

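Subunits of 2 receptor families, looked at together after their values were seen, differed in how many were enriched. Of 10 nicotinic acetylcholine receptor subunits, which form the main excitatory receptors of the fly central nervous system, 7 were enriched and 2 depleted, at a median log2 fold change of 0.61. Of the 5 GluRII subunits, which form the glutamate receptors of the larval muscle, 0 were enriched and 3 were depleted, at a median of -0.42 (edgeR; values from the fit over all genes). GluRIIC had 38.6 CPM ± 4.49 in RIP and 60.8 CPM ± 2.51 in input, and GluRIIE 59.0 CPM ± 2.04 in RIP and 79.2 CPM ± 5.01 in input (SD, n = 3 each). Exons of GluRIIE and GluRIIA, both depleted, and of GluRIID overlap other genes. The difference between the families was not tested.

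Markers of other lists moved as follows, beside 27.0% enriched and 30.4% depleted among all tested genes. Of 6 hemocyte and fat body markers 2 were enriched and 4 depleted, of 5 gut markers 0 were enriched and 4 depleted, and of 5 maternal germ plasm markers 0 were enriched and 1 was depleted.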
